A study of Mus musculus with 6 samples.

Results

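The insulin-like growth factor (IGF) binding protein genes Igfbp2, Igfbp3, Igfbp4, Igfbp5, Igfbp6 and Igfbp7 were followed in mouse aorta. They are 6 of the 35275 genes in the deposited table and were selected by gene symbol, with the wild-type and EC-Jag1KO values of the same table already known. The difference between the genotypes is therefore given for them as a description, with no test. The table holds 3 wild-type and 3 EC-Jag1KO libraries; the EC-Jag1KO aortas are deficient in the Notch ligand Jagged1 in endothelial cells, and the series title places that loss in mature endothelium. The study asks how this loss affects the vessel wall and the state of its smooth muscle. Age, sex, strain, any treatment and the Cre driver are not given in the labels, nor whether each library is a separate animal, so the spread between replicates may be partly technical.

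IGF binding proteins are secreted proteins that hold IGF-I and IGF-II in the blood and between cells, and so set how much ligand reaches the IGF-I receptor. They can block the ligand, lengthen its life or release it when a protease cuts the carrier. Several also act without IGF, by binding matrix or cell surface proteins, and vascular smooth muscle is a known source of them. Igfbp7 is the outlier of the family, with a low affinity for IGF and a place in vascular basement membranes.

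The 6 genes lie on 4 chromosomes of mm10. Igfbp2 (ENSMUSG00000039323, plus strand, chromosome 1, 72824503 to 72852474) and Igfbp5 (ENSMUSG00000026185, minus strand, chromosome 1, 72857932 to 72874884) are tail-to-tail neighbours. The gap between their 3′ ends is 5457 bases, with 0 annotated genes in it. Igfbp3 (ENSMUSG00000020427, minus strand, chromosome 11, 7206086 to 7213923) has the same arrangement with Igfbp1, across 3539 bases. Igfbp4 (ENSMUSG00000017493, plus strand, chromosome 11, 99041244 to 99054392), Igfbp6 (ENSMUSG00000023046, plus strand, chromosome 15, 102144362 to 102149511) and Igfbp7 (ENSMUSG00000036256, minus strand, chromosome 5, 77349240 to 77408045) stand alone. In GENCODE M21 the transcript with the longest coding sequence has 4 exons for Igfbp2, Igfbp4, Igfbp5 and Igfbp6, 5 for Igfbp3 and 6 for Igfbp7. Coding sequences run from 714 bases (Igfbp6) to 939 bases (Igfbp7). The 3′ untranslated regions differ far more, from 209 bases in Igfbp6 to 4445 bases in Igfbp5, so Igfbp5 collects more reads than a short gene at the same level. Igfbp7 overlaps Polr2b and Gm34648 on the other strand, and without a stated strand setting reads could be shared there. No annotated gene overlaps the other 5.

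The promoters are shown for Igfbp5, the member with the largest difference between genotypes, for its chromosome neighbour Igfbp2, and for Igfbp4, the most abundant of the middle tier. Each is the 250 bases before the RefSeq gene start in GRCm38.p6, read 5′ to 3′ on the gene's own strand, with matches to 3 searched motifs in capitals. The windows are chr1:72874866-72875115 (minus strand), chr1:72824230-72824479 (plus strand) and chr11:99040994-99041243 (plus strand).
Igfbp5: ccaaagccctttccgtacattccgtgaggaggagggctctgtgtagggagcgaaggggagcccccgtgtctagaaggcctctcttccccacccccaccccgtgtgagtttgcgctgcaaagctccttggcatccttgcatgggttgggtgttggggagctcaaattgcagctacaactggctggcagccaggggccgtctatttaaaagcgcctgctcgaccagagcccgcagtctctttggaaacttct
Igfbp2: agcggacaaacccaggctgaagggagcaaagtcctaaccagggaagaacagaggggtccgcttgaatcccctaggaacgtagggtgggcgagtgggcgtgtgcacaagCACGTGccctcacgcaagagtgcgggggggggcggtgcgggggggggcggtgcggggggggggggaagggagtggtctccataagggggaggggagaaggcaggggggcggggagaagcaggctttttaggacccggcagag
Igfbp4: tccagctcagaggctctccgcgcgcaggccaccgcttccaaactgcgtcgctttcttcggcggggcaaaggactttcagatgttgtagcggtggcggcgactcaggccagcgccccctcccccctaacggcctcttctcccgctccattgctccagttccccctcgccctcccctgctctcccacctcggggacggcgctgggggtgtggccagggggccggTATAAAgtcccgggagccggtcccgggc

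The motifs were GTGGGAA, the core bound by the Notch effector RBPJ, CACGTG, an E-box that Hes and Hey repressors can bind, and TATAAA, the TATA box, each searched on both strands. GTGGGAA was in none of the 6 member windows and in 5.42% of 32851 RefSeq windows of the same length. The capitals in Igfbp2 mark CACGTG at position -142 from the gene start, a motif held by 6.02% of windows. The capitals in Igfbp4 mark TATAAA at position -28, and Igfbp6 has the same letters on the other strand at position -148, where 12.4% of all windows hold this motif. The Igfbp5, Igfbp3 and Igfbp7 windows held none of the 3. The GC content was 49.6% in Igfbp6, below the median of 52.4% over all windows. Every other member lay above that median, from 58.8% in Igfbp5 to 74.0% in Igfbp7. The starts of Igfbp2 and Igfbp5 are 50385 bases apart, so these neighbours do not share a promoter window.

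The libraries held 19889910 to 25914325 reads in genes. Markers of smooth muscle, endothelium and fibroblasts, the main cells of an aorta, were all detected; the summed level of 6 smooth muscle markers was 11422 to 14388 FPKM. Wild-type replicate 3 and EC-Jag1KO replicate 3 stand apart by Xist, the transcript of the inactive X chromosome, at 26.9 and 40.7 FPKM against 0.0291 to 0.0738 FPKM in the other 4. White adipocyte markers differed 5.6-fold between wild-type libraries, from 217 FPKM in replicate 2 to 1217 FPKM in replicate 3. Brown adipocyte markers differed 12.9-fold between the same libraries, from 40.5 to 525 FPKM. Jag1, the targeted gene, stood at 9.86, 10.6 and 16.9 FPKM in wild-type aorta, against 13.5, 9.42 and 19.6 FPKM in EC-Jag1KO aorta, and the exact two-sided permutation test gave p = 0.7, where 0.1 is the smallest it allows. Other cells of the wall make Jag1, and reads over the whole gene do not check a deletion in the endothelium.

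All values of level are in FPKM, fragments per kilobase of gene and scaled by the assigned fragments of the library, so levels can be compared between members. Igfbp7 was by far the most abundant, at 1813 ± 166 FPKM over the 6 libraries (SD, n = 6), rank 17 among the 12165 genes whose mean reached 1 FPKM. Igfbp4 (150 ± 21.4 FPKM), Igfbp5 (128 ± 41.8 FPKM) and Igfbp6 (104 ± 13.6 FPKM) formed a middle tier, each above 95.7% or more of those genes. Igfbp2 stood at 12.9 ± 6.2 FPKM and Igfbp3 at 2.61 ± 1.05 FPKM, and Igfbp3 lay above only 16.1% of those genes. All 6 members passed the filter on low values.

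The order of levels was fixed at its ends and mixed in the middle. In each of the 6 libraries Igfbp7 was highest, 9.76 to 15.1 times above Igfbp4. Igfbp6 exceeded Igfbp2 by 4.97 to 12.7 times, and Igfbp2 exceeded Igfbp3 by 1.99 to 9.94 times, also in 6 of 6 libraries. Over both genotypes together, Igfbp4 lay above Igfbp5 in 4 of 6 libraries and Igfbp5 above Igfbp6 in 4 of 6, so the pooled levels of these neighbours do not differ beyond their spread. The order of the middle tier by mean was Igfbp5, Igfbp4, Igfbp6 in wild-type and Igfbp4, Igfbp6, Igfbp5 in EC-Jag1KO aorta. Igfbp7 made up 79.2% to 84.5% of the summed FPKM of the 6 genes in each library.

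**Figure D1:**
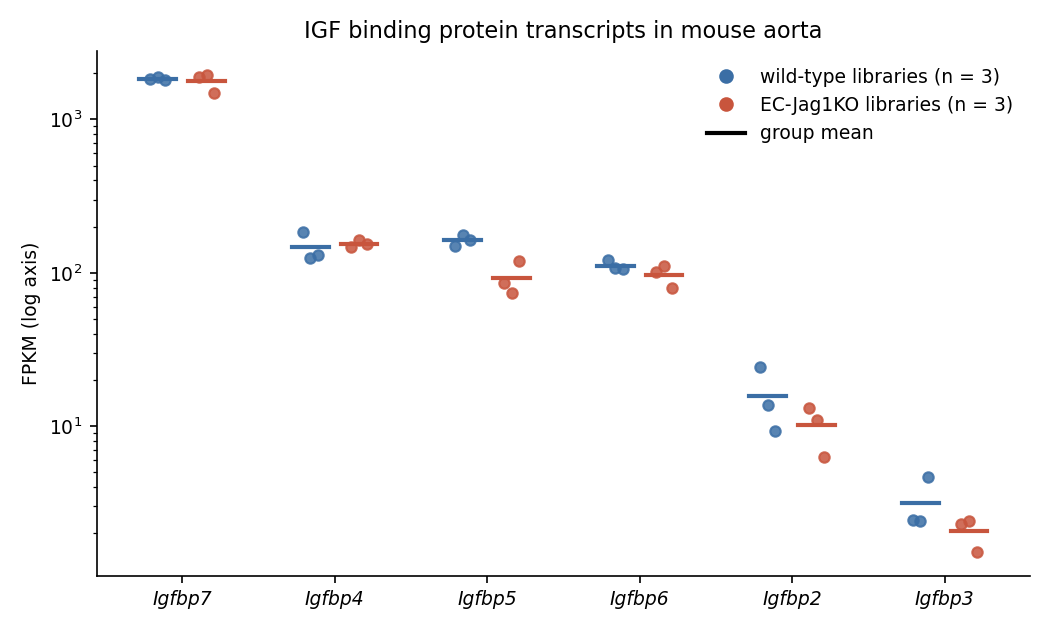
FPKM on a log axis of each IGF binding protein gene in 3 wild-type (blue) and 3 EC-Jag1KO (red) aorta libraries; points are libraries and bars are group means. Igfbp7 lies near 1813 FPKM, Igfbp4, Igfbp5 and Igfbp6 lie together below it, and the red Igfbp5 points all lie below the blue ones.

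Igfbp5, whose product binds IGF with high affinity and also attaches to matrix, was the member with the largest difference between genotypes. It measured 150, 175 and 162 FPKM in wild-type replicates 1, 2 and 3, and 85.5, 73.5 and 119 FPKM in EC-Jag1KO replicates 1, 2 and 3. All 3 EC-Jag1KO libraries lie below all 3 wild-type libraries, and EC-Jag1KO replicate 3 is the nearest to them. The group means were 162 ± 13 and 92.6 ± 23.4 FPKM (SD, n = 3 each), so the EC-Jag1KO mean was 57.0% of the wild-type mean. On the log2(FPKM + 1) scale, where fold changes of low genes are understated, the difference was -0.83 with a standard error of 0.18 from limma. Leaving out any 1 library gave -0.68 to -1.02, and leaving out both Xist-positive libraries gave -1.02. The counts behind it were 8784 to 26433 reads per library, so counting error is small beside the spread between libraries.

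Levels of other cell types were compared beside Igfbp5. The summed smooth muscle markers were 13704 to 14388 FPKM in wild-type aorta, against 11422 to 13631 FPKM in EC-Jag1KO aorta, lower with no overlap, at 0.892 times the wild-type mean against 0.570 times for Igfbp5. Of the 6 markers, Myh11, Tagln and Smtn were lower with no overlap, where 6.73% of all tested genes were lower with no overlap. Myh11 stood at 1474 ± 88 and 1257 ± 56 FPKM, Tagln at 4221 ± 204 and 3572 ± 464 FPKM. Smtn stood at 390 ± 22 and 282 ± 19 FPKM, a larger relative drop than that of the sum. Acta2, Cnn1 and Des overlapped, and Cnn1 had a higher mean in EC-Jag1KO aorta (637 ± 45 and 685 ± 80 FPKM). EC-Jag1KO replicate 3 had the lowest smooth muscle sum and the highest Igfbp5 of its group. The markers differed there: Acta2 and Tagln, the largest parts of the sum, and Cnn1 and Des were lowest of their group. Myh11 was highest of its group in that library, at 1307 FPKM, and Smtn lay between. The fibroblast sum overlapped, at 1116 to 1365 FPKM in wild-type aorta, against 1224 to 1332 FPKM in EC-Jag1KO aorta, as did the endothelial sum at 259 to 365 and 280 to 377 FPKM. Of the 6 fibroblast markers, Pdgfra (14.8 to 15.8 and 17.7 to 21.7 FPKM) and Lum (58.1 to 67.0 and 70.1 to 76.2 FPKM) were higher in EC-Jag1KO libraries with no overlap. Over all tested genes, 6.84% were higher with no overlap. Dcn (663 ± 93 and 602 ± 53 FPKM) and Pi16 (145 ± 18 and 133 ± 20 FPKM) had lower means in EC-Jag1KO aorta, with overlap. Col1a1 and Dpt had higher means, also with overlap. The 5 mesothelial markers summed to 0.258 to 0.505 FPKM in wild-type aorta, against 1.31 to 2.38 FPKM in EC-Jag1KO aorta, near 0 in both and higher in the second with no overlap. Red blood cell markers summed to 740 to 1518 FPKM in wild-type aorta, against 190 to 918 FPKM in EC-Jag1KO aorta, which overlap. The EC-Jag1KO mean of that sum was 0.445 times the wild-type mean. All 5 of these markers had lower means of log2(FPKM + 1) in EC-Jag1KO aorta, each with overlap, with a median log2 difference of -1.39. No marker of these lists was at 0 in every library. The part of these markers in the Igfbp5 difference was not tested. In whole tissue, fewer cells of a type and less RNA per cell cannot be told apart.

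Igfbp2, the neighbour of Igfbp5 on chromosome 1, encodes a carrier that also binds an integrin. It measured 24.3, 13.7 and 9.23 FPKM in wild-type aorta, against 13.0, 11.0 and 6.29 FPKM in EC-Jag1KO aorta. The groups overlap, and wild-type replicate 1 alone is far above the rest. The means were 15.7 ± 7.8 and 10.1 ± 3.5 FPKM (n = 3 each), a log2 difference of -0.55 with a standard error of 0.36, on 213 to 751 reads. Without wild-type replicate 1 the difference was -0.20, and without EC-Jag1KO replicate 3 it was -0.27. Leaving out wild-type replicate 3 gave -0.85 and leaving out EC-Jag1KO replicate 1 gave -0.74. Its spread within the groups was larger than that of 97.0% of the 12165 genes. The ratio of Igfbp5 to Igfbp2 ran from 6.16 to 17.6 in wild-type and from 6.56 to 18.9 in EC-Jag1KO libraries, so within each genotype this pair of neighbours did not keep one ratio.

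Igfbp3 encodes the main IGF carrier of the blood, where it joins IGF and the product of Igfals. It was the lowest member, at 2.45, 2.40 and 4.64 FPKM in wild-type aorta, against 2.28, 2.39 and 1.51 FPKM in EC-Jag1KO aorta. The groups do not overlap in the deposited values, but the lowest wild-type value (146 reads) and the highest EC-Jag1KO value (115 reads) are 0.552 reads apart at equal depth. Wild-type replicate 3 and EC-Jag1KO replicate 3, the Xist-positive libraries, are the highest and the lowest of the 6. The means were 3.16 ± 1.28 and 2.06 ± 0.48 FPKM (n = 3 each), a log2 difference of -0.41 with a standard error of 0.23. Leaving out wild-type replicate 3 gave -0.17, leaving out EC-Jag1KO replicate 3 gave -0.28, and leaving out both gave -0.038. In the voom fit on recovered reads, which does not add 1 FPKM, the log2 difference was -0.61.

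Igfbp4 encodes a carrier that mostly blocks IGF until the protease made from Pappa cuts it. It measured 183, 125 and 131 FPKM in wild-type aorta, against 146, 163 and 153 FPKM in EC-Jag1KO aorta, and the groups overlap. The log2 difference was 0.092 with a standard error of 0.16, moving to -0.0096 when wild-type replicate 2 was left out and to 0.26 when wild-type replicate 1 was. The other 4 omissions gave 0.022 to 0.13. Igfbp6 encodes a carrier that prefers IGF-II. It measured 121, 107 and 106 FPKM in wild-type aorta, against 101, 110 and 79.9 FPKM in EC-Jag1KO aorta, a log2 difference of -0.20 with a standard error of 0.14. EC-Jag1KO replicate 2 lies among the wild-type values. Leaving out EC-Jag1KO replicate 3, the lowest library, gave -0.072. Without wild-type replicate 1 the Igfbp6 difference was -0.14, and without both Xist-positive libraries it was -0.10.

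Igfbp7 measured 1830, 1887 and 1804 FPKM in wild-type aorta, against 1902, 1960 and 1493 FPKM in EC-Jag1KO aorta. Apart from EC-Jag1KO replicate 3, which is the lowest, the EC-Jag1KO libraries lie above the wild-type ones. The log2 difference was -0.054 with a standard error of 0.16, and the sign turned, to 0.069, without EC-Jag1KO replicate 3. Leaving out both Xist-positive libraries gave 0.055. Leaving out EC-Jag1KO replicate 2 gave -0.13 and leaving out EC-Jag1KO replicate 1 gave -0.11. The wild-type coefficient of variation was 2.30% and the EC-Jag1KO one 14.2%. EC-Jag1KO replicate 3 was also the lowest of all 6 libraries for Igfbp2, Igfbp3 and Igfbp6.

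**Figure D2:**
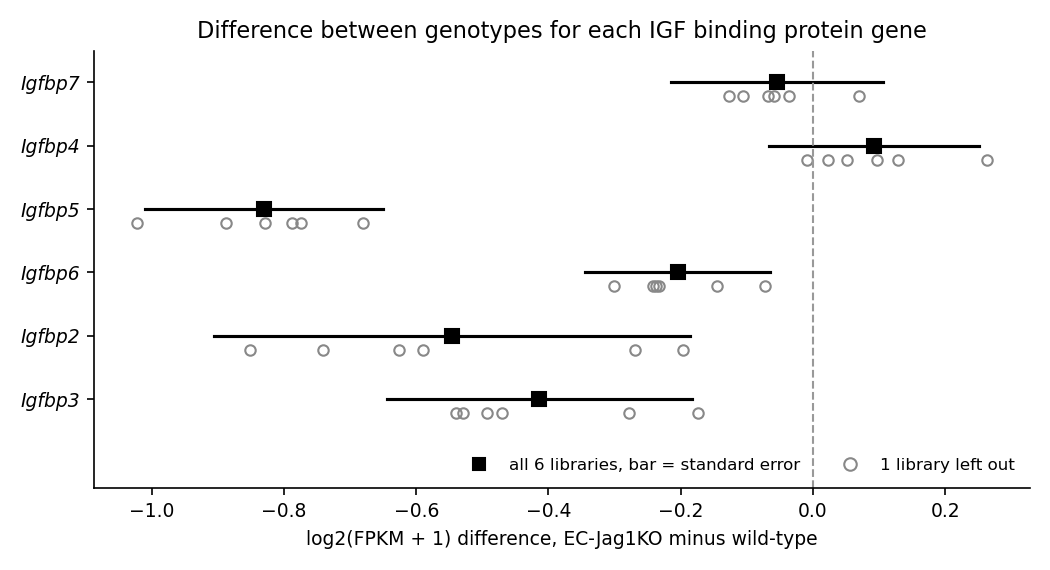
Difference in log2(FPKM + 1), EC-Jag1KO minus wild-type, for each IGF binding protein gene: squares use all 6 libraries with bars of 1 standard error, and open circles leave out 1 library each. The Igfbp5 circles stay between -1.02 and -0.68, while those of Igfbp4 and Igfbp7 fall on both sides of 0.

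Together, 5 of the 6 members had lower means of log2(FPKM + 1) in EC-Jag1KO libraries and 1 had a higher one, with a median log2 difference of -0.31, beside a median of -0.00022 over all 12165 genes tested, of which 6088 were lower and 6077 higher. The groups did not overlap for 2 of the 6, Igfbp5 and Igfbp3, both lower, where 6.73% of all tested genes were lower with no overlap, 6.84% were higher with no overlap and 13.6% did not overlap in either direction. The members were chosen with this contrast known, so nothing is read from these shares. The summed FPKM of the 6 genes was 2280 ± 54 in wild-type aorta, against 2141 ± 252 in EC-Jag1KO aorta. Without Igfbp7 the sum was 481, 423 and 413 FPKM in wild-type aorta, against 348, 360 and 360 FPKM in EC-Jag1KO aorta, with no overlap. With Igfbp5 removed as well, it was 248 to 331 and 241 to 286 FPKM, which overlap.

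Igfbp5 was below Igfbp4 in all 3 EC-Jag1KO libraries and in wild-type replicate 1. Igfbp5 was above Igfbp6 in all 3 wild-type libraries and in EC-Jag1KO replicate 3, and below it in EC-Jag1KO replicates 1 and 2. The ratio of Igfbp5 to Igfbp4 was 0.816, 1.40 and 1.24 in wild-type aorta, against 0.585, 0.451 and 0.776 in EC-Jag1KO aorta. As a share of the 6-gene sum, Igfbp5 made up 7.13% ± 0.58 in wild-type and 4.46% ± 1.72 in EC-Jag1KO libraries (SD, n = 3 each).

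**Figure D3:**
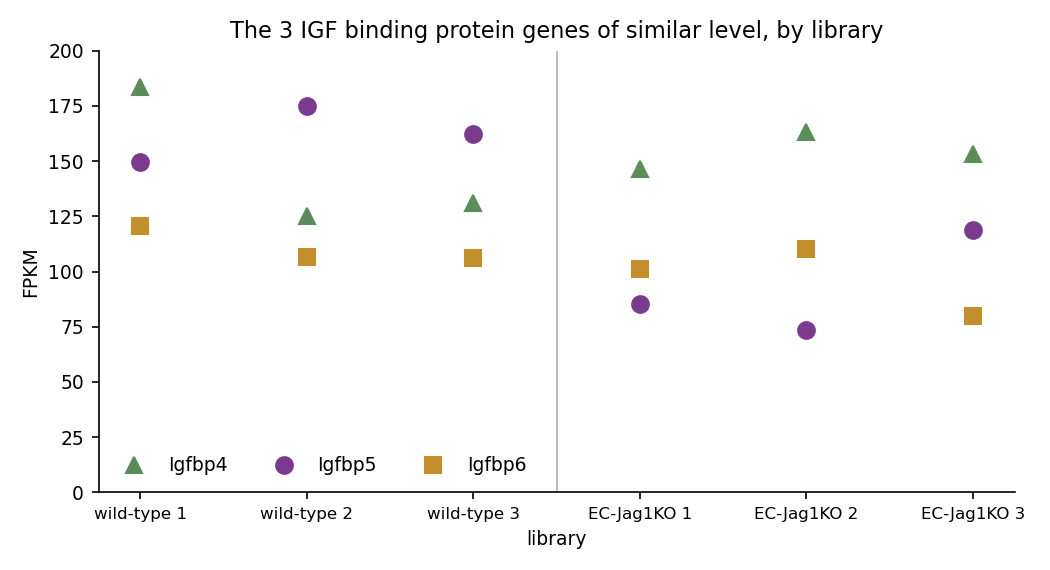
FPKM of Igfbp4 (triangles), Igfbp5 (circles) and Igfbp6 (squares) in each of the 6 libraries, wild-type left and EC-Jag1KO right. The Igfbp5 circle is above the Igfbp6 square in 4 libraries and below it in EC-Jag1KO replicates 1 and 2.

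Genes with the most similar pattern were sought among 8210 protein-coding genes whose mean reached 5 FPKM, by the root-mean-square difference of log2(FPKM + 1) values centred over the 6 libraries. For Igfbp5 these were Enpep, which encodes an angiotensin-cleaving aminopeptidase, at a difference of 0.15, and Fblim1, which encodes a filamin-binding adhesion protein, at 0.16. Fblim1 measured 473, 617 and 456 FPKM in wild-type aorta, against 233, 225 and 437 FPKM in EC-Jag1KO aorta, with replicate 3 the highest of its group. For Igfbp3 they were Fam84a (0.073) and Igf2 (0.075), the gene of the ligand IGF-II. Igf2 measured 9.83, 8.63 and 16.3 FPKM in wild-type aorta, against 9.03, 8.29 and 6.03 FPKM in EC-Jag1KO aorta, with the same highest and lowest library as Igfbp3. For Igfbp2 the nearest were Trnp1 and Penk (0.26 and 0.27), and for Igfbp4 C1qb (0.056), a complement gene of macrophages, and Apol6 (0.064). Igfbp6 was nearest to Plekhh3 and Tceal3, and Igfbp7 to Pla2g15 and Suds3. These are the smallest of 8210 differences per member over 6 libraries and are a description only. Genes were picked for this likeness, so a shared position of a library, as in Fblim1 and Igf2, comes from the search itself.

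The remaining carriers were scarcely detected. Igfbp1, the liver-derived member next to Igfbp3, had 5 reads over the wild-type and 9 over the EC-Jag1KO libraries, 0 to 0.297 FPKM. Igfbpl1 had 0 and 4 reads. Igfals, which encodes the acid-labile subunit of the blood complex, was at 0.0188 to 1.79 FPKM. All 3 lay below the filter and were not tested.

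Around the members, 79 genes of 7 IGF pathway lists were matched in the table and 66 were tested. At an adjusted p under 0.05 in limma 0 of the 66 passed, as did 0 of all 12165 genes (0%), with a smallest adjusted p of 0.232, and voom on recovered reads also called 0; limma found 938 genes and voom 1008 at an unadjusted p under 0.05. At an unadjusted p under 0.05 in limma there were 12 of the 66 (18.2%), 9 higher and 3 lower in EC-Jag1KO libraries. Over all tested genes the share was 7.71%, with 4.25% higher and 3.46% lower. The groups did not overlap for 11 of 66, or 16.7%, beside 13.6% of all genes, and the median log2 difference was 0.091. The lists were chosen with earlier results of these data known, so nothing is read from these shares. None of the genes named from these lists passed the adjusted threshold.

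Both ligands stood below Igfbp4, Igfbp5, Igfbp6 and Igfbp7 and above Igfbp3 in each of the 6 libraries. Igf1, which encodes IGF-I, measured 2.67, 2.86 and 4.69 FPKM in wild-type aorta, against 5.47, 5.03 and 5.61 FPKM in EC-Jag1KO aorta, higher with no overlap, with a log2 difference of 0.56 and an adjusted p of 0.524 in limma. Igf2 had a log2 difference of -0.49 (limma adjusted p = 0.677) and overlapping groups. Summed, the FPKM of the members other than Igfbp7 was 19.7 to 38.5 times that of Igf1 plus Igf2 in wild-type and 24.0 to 30.9 times in EC-Jag1KO libraries. Among receptors, Insr, the insulin receptor gene, stood at 15.2 ± 2.0 and 18.8 ± 1.5 FPKM (limma adjusted p = 0.629). Igf1r, the signalling receptor gene, stood at 9.95 ± 0.16 and 11.9 ± 3.1 FPKM, and Igf2r, whose product clears IGF-II, at 16.9 ± 1.3 and 14.4 ± 2.0 FPKM; both were added to the named genes after their values were seen. Of 5 tested ligand and receptor genes 3 had higher and 2 lower values in EC-Jag1KO libraries.

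Upstream, the growth hormone list had 7 tested genes. Ghr, the growth hormone receptor gene, measured 20.8, 18.6 and 30.9 FPKM in wild-type aorta, against 52.2, 38.3 and 63.6 FPKM in EC-Jag1KO aorta, a log2 difference of 1.10 (limma adjusted p = 0.395). Socs2, a feedback inhibitor of that receptor, stood at 12.1 ± 0.7 and 19.2 ± 1.1 FPKM (limma adjusted p = 0.240), and Socs3 at 4.91 ± 0.63 and 4.23 ± 0.67 FPKM. Groups did not overlap for 2 of the 7 (28.6%), Ghr and Socs2, both higher. Over all tested genes 13.6% did not overlap, 6.84% of them all being higher with no overlap. The list median was -0.053, with 2 genes higher and 5 lower.

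Proteases that cut the carriers release IGF from them. Mmp3, the stromelysin gene, stood at 47.2 ± 14.9 FPKM in wild-type aorta, against 18.6 ± 2.8 FPKM in EC-Jag1KO aorta, with no overlap (limma adjusted p = 0.259), and Mmp2, the gelatinase gene, at 48.0 ± 8.0 and 62.9 ± 9.0 FPKM (limma adjusted p = 0.635). Adamts1 stood at 90.2 ± 7.2 and 101 ± 10 FPKM. Pappa, which encodes the protease of the Igfbp4 product, lay below the filter, at 0.184 to 0.219 FPKM in wild-type aorta, against 0.324 to 0.465 FPKM in EC-Jag1KO aorta, and was named after its values were seen. Of 10 tested proteases and inhibitors 8 had higher values and 2 lower, with a median log2 difference of 0.080.

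Genes whose proteins carry the same cysteine-rich IGFBP domain were also compared. Kazald1, which encodes a secreted protein with this domain, measured 16.7, 13.7 and 17.1 FPKM in wild-type aorta, against 10.5, 9.28 and 7.46 FPKM in EC-Jag1KO aorta, lower with no overlap, with a log2 difference of -0.74 (limma adjusted p = 0.345). Nov, a CCN family gene, stood at 473 ± 31 and 359 ± 40 FPKM, also lower with no overlap (limma adjusted p = 0.524). Htra4, a secreted protease gene, lay the other way at 2.91 ± 0.89 and 4.47 ± 1.41 FPKM. Of 11 tested genes 4 had higher and 7 lower values, with a median of -0.15.

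Among partners of IGF binding proteins at the cell surface and in the matrix, Ptprz1, which encodes a phosphatase receptor, stood at 24.3 ± 3.4 and 32.8 ± 3.9 FPKM with no overlap (limma adjusted p = 0.524). Spp1, the osteopontin gene, stood at 2.92 ± 3.02 and 7.73 ± 2.96 FPKM, and Thbs1, the thrombospondin-1 gene, at 8.05 ± 3.49 and 15.3 ± 6.5 FPKM, both with overlapping groups. Of 12 tested partners 9 had higher values, with a median of 0.21. Inside the cell, 22 signalling genes were tested. Rps6kb1, the S6 kinase gene, stood at 7.60 ± 0.47 and 9.67 ± 0.67 FPKM (limma adjusted p = 0.520), and Foxo1, a transcription factor that insulin and IGF signals hold out of the nucleus, at 14.2 ± 0.2 and 17.0 ± 0.8 FPKM (limma adjusted p = 0.585), both with no overlap. Foxo3 stood at 22.9 ± 2.1 and 28.8 ± 4.7 FPKM, with overlapping groups. The list median was 0.12, with 13 genes higher and 9 lower. Groups did not overlap for 4 of the 22 (18.2%), 3 higher and 1 lower, beside 13.6% of all tested genes.

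**Figure D4:**
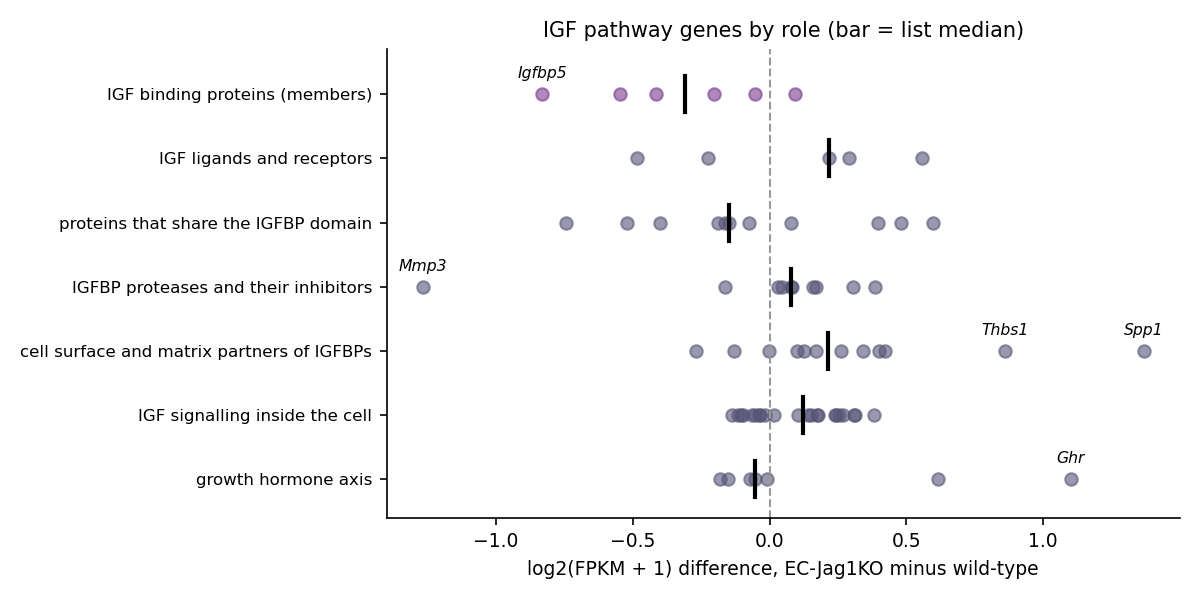
Difference in log2(FPKM + 1), EC-Jag1KO minus wild-type, for the 6 IGF binding protein genes and for the tested genes of each pathway list; points are genes, bars are list medians, and genes at 0.8 or more from 0 are labelled. Igfbp5 lies at -0.83, Mmp3 at -1.27, Ghr at 1.10 and Spp1 at 1.37.

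Of 13 Notch receptors, ligands and effectors, 0 passed the adjusted threshold. The groups did not overlap for 2 of the 13 (15.4%), beside 13.6% of all tested genes. These were Notch3, lower, and Nrarp, higher in EC-Jag1KO libraries. Notch3, a receptor of vascular smooth muscle, stood at 16.1 ± 1.5 and 9.90 ± 0.83 FPKM. Heyl, a Notch effector, stood at 49.9 ± 8.2 and 36.1 ± 5.8 FPKM, and Nrarp, a feedback target, at 4.78 ± 1.28 and 8.01 ± 2.06 FPKM. The limma adjusted p of these 3 was 0.259 to 0.579.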

How the data were processed

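RNA of mouse aorta was sequenced in 6 libraries, 3 per genotype. The authors deposited 1 table of FPKM values with gene lengths in bases (another unit, per the file headers) for 35275 genes. The submitters' processing notes list STAR, HTSeq, edgeR and the build mm10 without roles or versions. The sources used here state neither the annotation release nor the strand setting. The members, lists and tests were chosen with earlier results of these data known. Each value, times gene length, is within 0.05 of a whole number of reads (100% of values), which gave the depth of 19889910 to 25914325 reads in genes. Values were analysed as log2(FPKM + 1). The 12165 genes whose mean reached 1 FPKM entered a limma-trend fit (limma 3.58.1, R 4.3.3) on genotype alone, with two-sided tests and Benjamini-Hochberg adjustment over all genes. The test was also run on simulated data with independent errors. The outcome is not reported here, so nothing is said on what these libraries could detect. Named genes are the members, Jag1, up to 3 genes of smallest unadjusted p in each list and the 2 nearest patterns per member. Some others are marked where they appear. Single cell type markers, Gm10020 and Gm6472 were also named after their values were seen. Of the 6 macrophage markers 5 were matched, and their sum overlapped, at 143 to 179 FPKM in wild-type and 171 to 200 FPKM in EC-Jag1KO libraries. Alternatives were the pseudocount, the filter, scaling, the replicate block and each library left out; voom on recovered reads and leaving out both Xist-positive libraries were chosen after seeing the data. Promoters are from RefSeq (6 of 6 members matched). Libraries of a genotype differed beyond counting noise, by chi-square values of 24.4 to 57.1 per degree of freedom, so none is a repeat deposit of another; this does not show that they came from separate animals.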

Additional observations from a re-analysis of the deposited data

How the results depend on the processing

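The members' differences moved by less than 1 within-group SD under the other pseudocount, the 3 other scalings, the replicate block and voom. With each library left out in turn, the log2 difference ran from -1.02 to -0.68 for Igfbp5, -0.85 to -0.20 for Igfbp2, -0.54 to -0.17 for Igfbp3, -0.30 to -0.072 for Igfbp6, -0.0096 to 0.26 for Igfbp4 and -0.13 to 0.069 for Igfbp7. Without both Xist-positive libraries, chosen after seeing the data, Igfbp3 stood at -0.038, the median of the pathway lists at 0.023, and 2 genes passed the adjusted threshold, Gm10020 and Gm6472; the cause was not tested. Genes at an unadjusted p under 0.05 numbered 938, and 1436 with no filter and 612 with a filter at a mean of 5 FPKM, where more or fewer genes were tested, and 594 to 1437 with 1 library left out (leaving out wild-type replicate 2 gave 601, EC-Jag1KO replicate 1 gave 594 and EC-Jag1KO replicate 2 gave 1437 such genes). With 1 library left out, 0 to 4 genes passed the adjusted threshold; the 4, without EC-Jag1KO replicate 1, were Gm14287, Gm12191, Rpl3-ps1 and Eif3s6-ps2, named after their values were seen. Pathway genes at an unadjusted p under 0.05 numbered 8 to 15 in these fits, with a pathway median of 0.055 to 0.13. With replicate number as a block, 842 genes reached an unadjusted p under 0.05, 14 of them pathway genes, and 0 past the adjusted threshold. Deviations of same-numbered libraries correlated at 0.055, 0.051 and -0.050, against -0.24 to 0.19 for the other pairs. With 3 libraries per genotype this cannot settle whether the numbers pair the libraries. Both Xist-positive libraries are replicate 3 of their genotype. Depth limits Igfbp3 (95 to 289 reads) and Igfbp1.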
